A study of Danio rerio with 11 samples.

Results

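The constitutive proteasome subunits were followed as 50 genes of the 32105 in the count tables. The members were all genes whose Ensembl name begins with psma, psmb, psmc, psmd, psme, psmf or psmg and a number. The interferon-inducible subunits of the immunoproteasome and its psme1 and psme2 activator were left out by the same rule. The 50 members comprised 17 genes of the 20S core, 21 genes of the 19S cap and 12 further name matches, of which 6 encode assembly chaperones, 4 encode activators or an inhibitor, and 2 (psmc3ip and psme3ip1) are not subunits at all. All 50 passed the filter on low counts.

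The 26S proteasome is the protease that degrades proteins tagged with ubiquitin chains. Its barrel-shaped 20S core is built from outer rings of alpha subunits, which gate the entrance, and inner rings of beta subunits, some of which carry the protease sites. The 19S cap sits on the end of the barrel: its base holds a ring of ATPases that unfold the substrate, with scaffold and ubiquitin receptor subunits, and its lid holds the enzyme that removes the ubiquitin chain. These roles, and those given below for single genes, are known from yeast and mammals.

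Total RNA depleted of ribosomal RNA was sequenced from livers dissected out of zebrafish larvae at 120 hpf (5 dpf). The hUHRF1 larvae carry Tg(fabp10a:hUHRF1-EGFP)high, in which the fabp10a promoter drives human UHRF1 fused to EGFP in hepatocytes, and were picked by EGFP fluorescence. The WT larvae were their non-fluorescent siblings, so the conditions shared parents and age, and every group rests on a single transgene line. There were 5 hUHRF1 pools (clutches 4, 6, 7, 8 and 9, with 30 livers in each pool but the 27 of clutch 6) and 6 WT pools (clutches 4 to 9, with 20 livers each). The comparison asks how expression of human UHRF1 in hepatocytes changes the liver transcriptome at this age, read here for the proteasome. The transcript of the human transgene was not analysed here.

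Sequencing depth was 9064943 to 19370497 gene counts in the hUHRF1 pools and 15285359 to 23322479 in the WT pools. Of 15838 genes tested, 2299 were higher (14.5%) and 2313 lower (14.6%) in hUHRF1 livers by edgeR's quasi-likelihood test at a Benjamini-Hochberg adjusted p under 0.05. The median log2 fold change of all tested genes was 0.05 with TMM scaling and 0.83 when libraries were scaled by total counts alone. Under that scaling 93.1% of the called genes were higher, against 49.8% with TMM. It called 8251 of the 15838 tested genes higher, and 49 of the 50 proteasome members. Levels below are CPM (gene counts relative to the TMM-scaled library total), and log2 fold changes are hUHRF1 over WT. Hepatocyte markers were the most abundant of the marker lists in every pool: 11 of 13 were lower in hUHRF1 livers (13 with clutch as a block), and their summed level was 29863 to 86516 CPM in hUHRF1 pools and 97386 to 181783 CPM in WT pools. In bulk livers, fewer cells of a type and less RNA per cell cannot be told apart. Each pool comes from 1 clutch, so p-values measure the spread between pools.

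Proteasome subunit mRNAs were higher in hUHRF1 livers across the whole particle. Of the 50 members, 43 were higher, where 14.5% of all tested genes were, and 0 were lower by edgeR, at an unadjusted p under 0.05, or by DESeq2. All 17 core genes and all 21 cap genes were among the 43. The core counts here and below include psma6l, which passed the filter on low counts only through its hUHRF1 pools. The median log2 fold change was 1.95 over the core, 1.66 over the cap and 0.69 over the remaining 12, against 0.05 over all tested genes. A log2 fold change above 1.5 was reached by 16 core and 16 cap genes (5.28% of all tested genes). In 16 core and 19 cap genes the lowest hUHRF1 pool exceeded the highest WT pool, which held for 8.05% of all tested genes. Each of the 43 was higher in the hUHRF1 pool of every one of the 5 clutches that gave both conditions (20.8% of all tested genes).

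**Figure D1:**
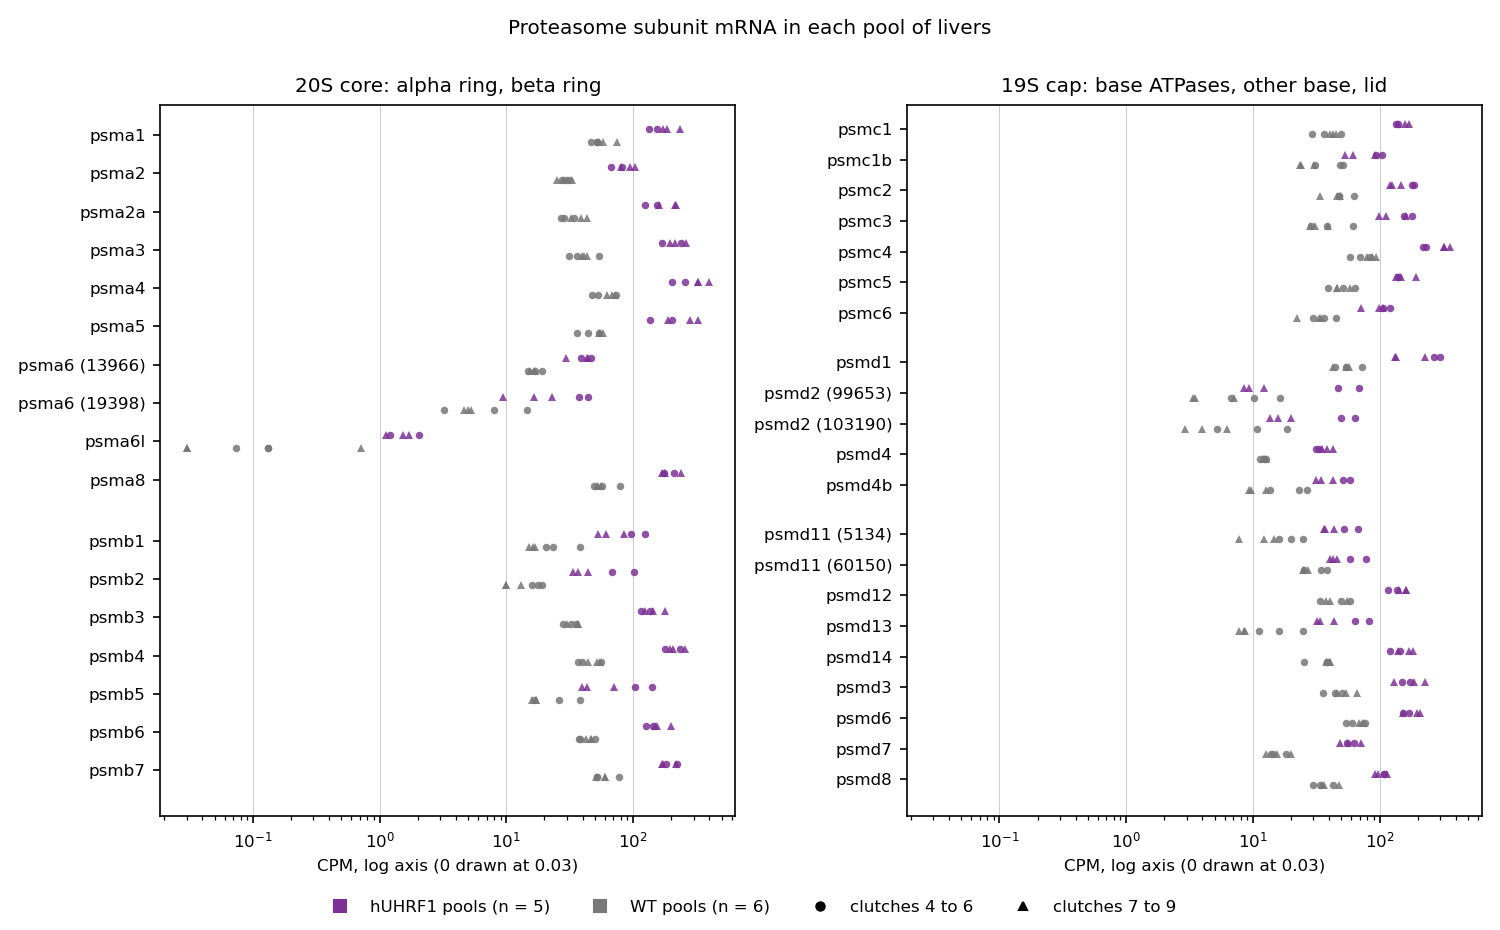
Level of each 20S core gene (left) and 19S cap gene (right) in CPM on a log axis, one point per pool, with hUHRF1 pools in purple above WT pools in grey, circles for clutches 4 to 6 and triangles for clutches 7 to 9. The hUHRF1 and WT pools are separate in 35 of the 38 genes and overlap in psma6 (ENSDARG00000019398) and the 2 psmd2 genes. Numbers in brackets are the last digits of the Ensembl ID where genes share a name.

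Summed over its 17 genes, the core had 1957, 2501, 2354, 2859 and 2162 CPM in the hUHRF1 pools of clutches 4, 6, 7, 8 and 9, an order kept for all lists of hUHRF1 values below. The WT pools of clutches 4 to 9 had 500, 549, 723, 589, 611 and 599 CPM. The lowest hUHRF1 pool thus stood far above the highest WT pool, that of clutch 6. Within clutches the core sum was 3.46 to 4.68 times higher in the hUHRF1 pool. The 21 cap genes summed to 2367, 2641, 2199, 2659 and 2037 CPM in the hUHRF1 pools, against 592, 756, 937, 674, 689 and 764 CPM in the WT pools. These groups were also separate, with hUHRF1 pools 2.67 to 4.00 times higher within clutches.

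With libraries scaled by total counts alone, core genes took 0.273% to 0.425% of all gene counts in hUHRF1 pools and 0.0396% to 0.0706% in WT pools. Cap genes took 0.267% to 0.449% in hUHRF1 pools and 0.0453% to 0.0915% in WT pools. The ratio of core counts to cap counts does not depend on scaling between libraries. Its log2 was -0.27, -0.08, 0.10, 0.10 and 0.09 in the hUHRF1 pools, against -0.24, -0.46, -0.38, -0.19, -0.17 and -0.35 in the WT pools. The ratio was higher in the hUHRF1 pool in clutches 6, 7, 8 and 9, by 0.28 to 0.44 on the log2 scale, and differed by -0.03 in clutch 4. The hUHRF1 pool of clutch 4 lay within the WT range and the other hUHRF1 pools above it; this difference between core and cap was not tested.

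**Figure D2:**
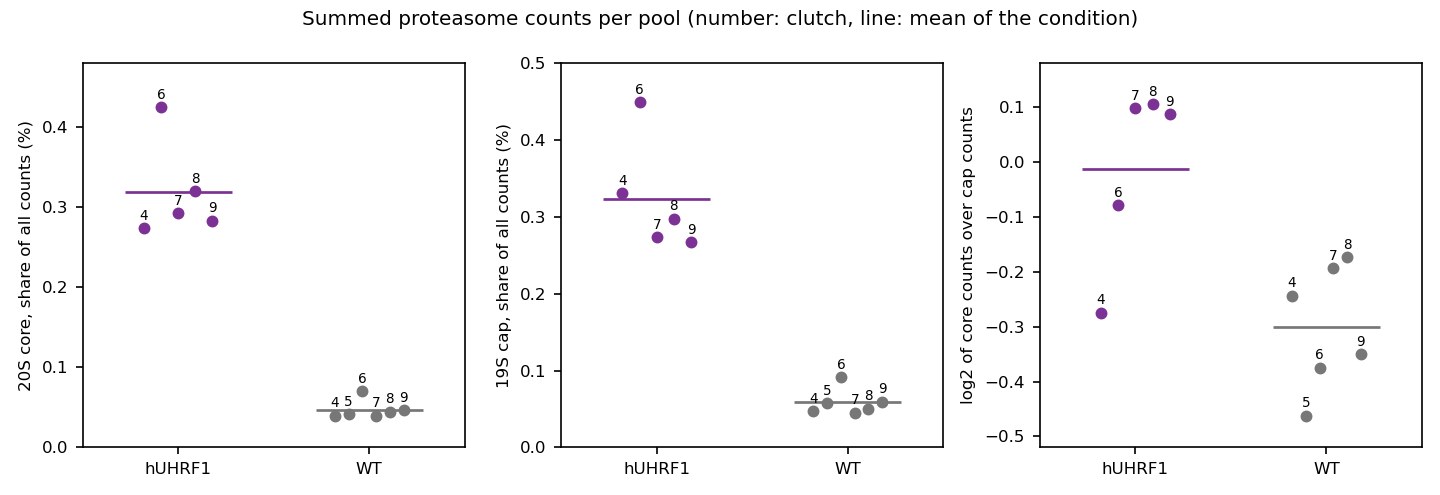
Share of all gene counts taken by 20S core genes (left, %) and 19S cap genes (middle, %), and log2 of core over cap counts (right), one point per pool with its clutch number and a line at the mean, hUHRF1 left of WT. Shares of core counts are 0.273% or more in hUHRF1 pools and 0.0706% or less in WT pools; the core to cap ratio overlaps only through hUHRF1 clutch 4.

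In the alpha ring, 10 of 10 genes were higher, with a median log2 fold change of 2.06. psma3 had the smallest p of the core. Its level was 170, 238, 214, 262 and 197 CPM in the hUHRF1 pools, against 31.4 to 53.6 CPM (median 40.3) in the WT pools. Every hUHRF1 pool was more than 3 times the highest WT pool, and the log2 fold change was 2.40 (SE 0.18, edgeR adjusted p = 3.4e-06). psma4 averaged 302 ± 75.5 CPM in hUHRF1 pools and 62.8 ± 10.5 CPM in WT pools (SD, n = 5 and 6), and psma5 averaged 227 ± 75.9 CPM in hUHRF1 pools and 50.2 ± 8.33 CPM in WT pools. Both were separate between conditions, at log2 fold changes of 2.27 and 2.18 (edgeR adjusted p = 7.95e-06 and 2.56e-05). psma1 stood at 1.65 (adjusted p = 4.16e-05) and psma8, which the RefSeq gene table lists with psma7 as a synonym, at 1.75 (adjusted p = 1.62e-05). psma8 had 175, 210, 177, 238 and 170 CPM in hUHRF1 pools, against 49.4 to 78.3 CPM (median 54.4) in WT pools, again with no overlap.

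The duplicated alpha genes differed in size of change. psma2 (ENSDARG00000035679) had 67.0, 82.5, 95.4, 104 and 80.1 CPM in hUHRF1 pools, against 25.0 to 33.0 CPM (median 28.6) in WT pools. psma2a had 125, 154, 213, 218 and 161 CPM in hUHRF1 pools, against 26.9 to 43.3 CPM (median 33.4) in WT pools. Both copies were separate between conditions, with log2 fold changes of 1.56 for psma2 and 2.35 for psma2a (edgeR adjusted p = 1.73e-05 and 6.25e-06). The log2 ratio of psma2 to psma2a counts was -1.16 to -0.90 in hUHRF1 pools and -0.79 to 0.22 in WT pools, so the balance of the copies was also separate, towards psma2a in hUHRF1 livers. Copies can share reads that the counting may split, and this ratio carries that uncertainty.

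Of the psma6 genes, the copy with ID ENSDARG00000013966 had 39.0, 46.3, 29.5, 43.3 and 43.7 CPM in hUHRF1 pools, against 14.9 to 19.01 CPM (median 16.7) in WT pools. Its log2 fold change of 1.28 was the lowest of the core (edgeR adjusted p = 5.89e-05). The copy ENSDARG00000019398 had 37.2, 44.5, 9.42, 23.1 and 16.4 CPM in hUHRF1 pools, against 3.24 to 14.6 CPM (median 5.13) in WT pools. It was the core gene whose conditions overlapped, since the hUHRF1 pool of clutch 7 lay below the WT pool of clutch 6. Its log2 fold change was 1.93 (SE 0.42, adjusted p = 0.00392). psma6l, a low-abundance relative of psma6, had 23, 67, 30, 14 and 18 counts in hUHRF1 pools and 1, 2, 3, 0, 0 and 9 counts in WT pools. It had the highest log2 fold change of all members, 3.07, and a wide error (SE 0.66, adjusted p = 0.00372). Its WT counts were all under the filter minimum of 10, so it was tested only because of its hUHRF1 pools, and in clutches 7 to 9 alone its call was lost (2.48, adjusted p = 0.119).

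In the beta ring, 7 of 7 genes were higher and separate between conditions, with a median log2 fold change of 1.95. The protease sites lie in psmb5 (chymotrypsin-like), psmb6 (caspase-like) and psmb7 (trypsin-like). psmb5 had 104, 141, 39.3, 71.0 and 43.3 CPM in hUHRF1 pools, against 16.1 to 38.5 CPM (median 17.1) in WT pools. The margin between its lowest hUHRF1 pool (clutch 7) and its highest WT pool (clutch 6) was small, and the log2 fold change of 1.86 had an SE of 0.35 (edgeR adjusted p = 0.00141). psmb6 had 128, 144, 148, 201 and 154 CPM in hUHRF1 pools, against 37.5 to 49.9 CPM (median 44.5) in WT pools. psmb7 had 183, 224, 170, 218 and 173 CPM in hUHRF1 pools, against 51.4 to 77.6 CPM (median 56.0) in WT pools. Both showed wide gaps between the conditions, with log2 fold changes of 1.83 (SE 0.16, adjusted p = 7.56e-06) and 1.72 (SE 0.17, adjusted p = 1.52e-05).

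The other beta subunits have no protease site of their own. psmb3 had 115, 136, 125, 177 and 143 CPM in hUHRF1 pools, against 28.1 to 36.6 CPM (median 33.9) in WT pools. psmb4 had 177, 235, 208, 255 and 195 CPM in hUHRF1 pools, against 36.5 to 56.0 CPM (median 48.02) in WT pools. For each, the lowest hUHRF1 pool was about 3 times the highest WT pool, at log2 fold changes of 2.07 (SE 0.16, edgeR adjusted p = 3.75e-06) and 2.18 (SE 0.17, adjusted p = 4.8e-06). psmb1 and psmb2 had log2 fold changes of 1.95 and 2.00 (adjusted p = 0.000225 and 0.000301).

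Among the base ATPases, 7 of 7 genes were higher with no overlap, at a median log2 fold change of 1.66. psmc1 had 134, 139, 171, 159 and 139 CPM in hUHRF1 pools, against 29.3 to 50.0 CPM (median 41.8) in WT pools. Its copy psmc1b had 93.2, 104, 62.0, 92.8 and 53.3 CPM in hUHRF1 pools, against 23.5 to 51.9 CPM (median 30.6) in WT pools. psmc1 was widely separate, whereas psmc1b was separate by a narrow margin, with log2 fold changes of 1.87 (edgeR adjusted p = 7.95e-06) and 1.21 (adjusted p = 0.00316). The log2 ratio of their counts was 0.41 to 1.46 in hUHRF1 pools and -0.52 to 0.88 in WT pools, which overlap. The other ATPase genes stood close together, with psmc3 at 1.90 (adjusted p = 8.99e-05), psmc4 at 1.88 (1.89e-05), psmc2 at 1.66 (4.32e-05), psmc6 at 1.57 (8.56e-05) and psmc5 at 1.57 (3.75e-05).

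The remaining base genes encode scaffolds and a ubiquitin receptor, and 5 of 5 were higher. The scaffold psmd1 had a log2 fold change of 1.96 (edgeR adjusted p = 8.18e-05). The name psmd2, the other scaffold, belongs to a pair of Ensembl IDs, whereas the RefSeq gene table lists a single psmd2. ENSDARG00000099653 had 46.7, 68.4, 8.57, 12.3 and 9.27 CPM in hUHRF1 pools, against 3.36 to 16.4 CPM (median 6.87) in WT pools. ENSDARG00000103190 had 49.2, 64.3, 13.6, 20.2 and 15.8 CPM in hUHRF1 pools, against 2.92 to 18.7 CPM (median 5.74) in WT pools. In both, clutches 4 and 6 were far above the other hUHRF1 pools, and the conditions overlapped. Their log2 fold changes were 1.87 (SE 0.57, edgeR adjusted p = 0.0246) and 2.02 (SE 0.51, adjusted p = 0.009). The call of ENSDARG00000099653 was lost without the hUHRF1 pool of clutch 4 (1.64, adjusted p = 0.0628), without that of clutch 6 (1.28, adjusted p = 0.0937) and in clutches 7 to 9 alone (1.096, adjusted p = 0.0569).

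The ubiquitin receptor psmd4 had the smallest p of the cap. It had 31.4, 33.5, 38.2, 42.8 and 35.3 CPM in hUHRF1 pools, against 11.5 to 12.8 CPM (median 12.2) in WT pools. The WT pools were almost level, and the log2 fold change was 1.56 (SE 0.13, edgeR adjusted p = 6.63e-06). Its copy psmd4b had 51.8, 58.9, 31.7, 42.9 and 34.7 CPM in hUHRF1 pools, against 9.35 to 26.6 CPM (median 13.1) in WT pools, with a log2 fold change of 1.47 (SE 0.29, adjusted p = 0.00192). psmd4b varied more than psmd4 between pools of either condition and was still separate.

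All 9 lid genes were higher with no overlap, at a median log2 fold change of 1.65. psmd14, the deubiquitinase of the lid, had 122, 144, 172, 184 and 141 CPM in hUHRF1 pools, against 25.2 to 40.9 CPM (median 38.3) in WT pools. psmd7, its structural partner, had 55.8, 62.5, 56.1, 71.2 and 48.5 CPM in hUHRF1 pools, against 12.8 to 19.8 CPM (median 14.9) in WT pools. In each, the lowest hUHRF1 pool was more than 2 times the highest WT pool, at log2 fold changes of 2.05 (SE 0.18, edgeR adjusted p = 6.63e-06) and 1.90 (SE 0.17, adjusted p = 7.43e-06). The other single-copy lid genes were psmd13 at 1.99 (adjusted p = 0.000793), psmd3 at 1.81 (3.29e-05), psmd12 at 1.65 (3.67e-05), psmd8 at 1.46 (2.97e-05) and psmd6 at 1.37 (5.31e-05).

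The copies of psmd11 included the cap gene with the lowest change. ENSDARG00000005134 had 52.04, 67.1, 37.0, 36.7 and 43.7 CPM in hUHRF1 pools, against 7.79 to 24.9 CPM (median 15.3) in WT pools. ENSDARG00000060150 had 58.5, 78.6, 40.7, 45.8 and 42.9 CPM in hUHRF1 pools, against 24.8 to 38.8 CPM (median 26.3) in WT pools. Both were separate between conditions, at log2 fold changes of 1.57 (edgeR adjusted p = 0.00074) and 0.86 (adjusted p = 0.00638). The log2 ratio of their counts, ENSDARG00000005134 over ENSDARG00000060150, was -0.32 to 0.03 in hUHRF1 pools and -1.67 to -0.64 in WT pools, so the copies were near parity in hUHRF1 livers, and ENSDARG00000060150 had more counts in WT livers. For the psma6, psmd2 and psmd4 copies the count ratios overlapped between conditions. Reads shared between copies leave each of these ratios uncertain.

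**Figure D3:**
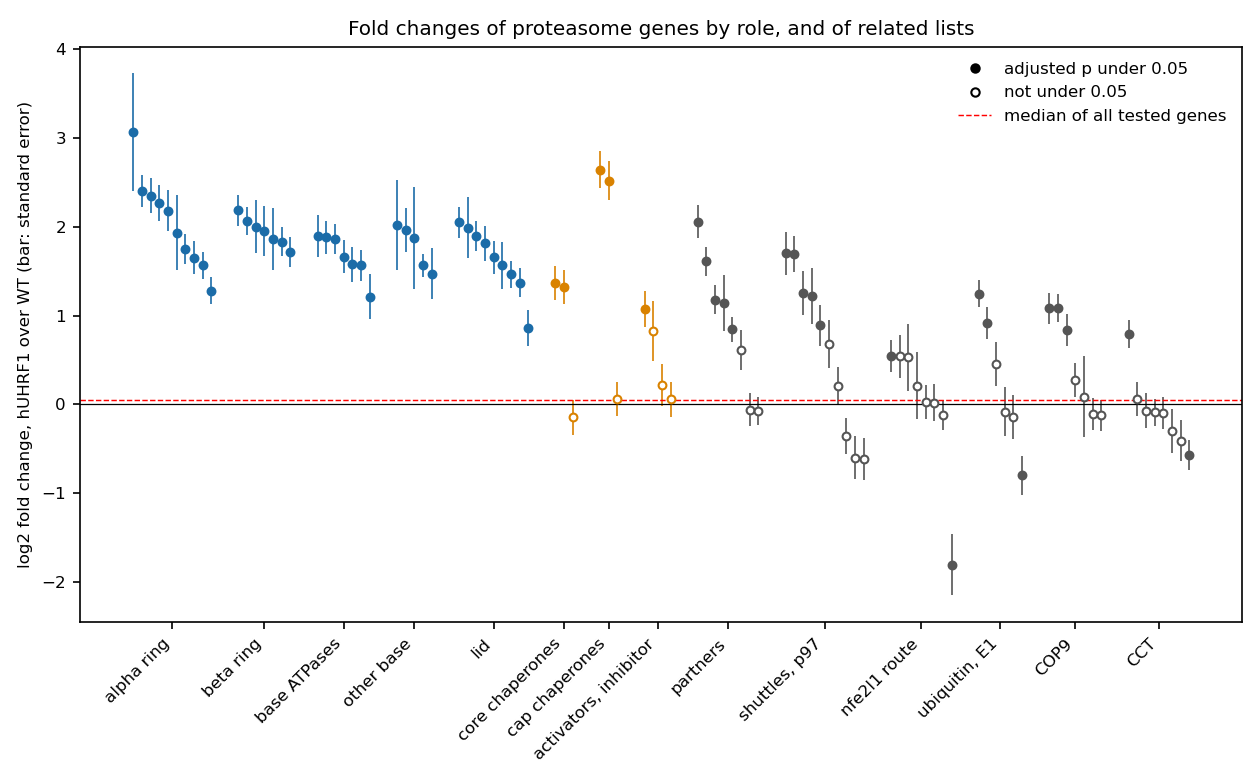
Log2 fold change (hUHRF1 over WT, bar: standard error) of each gene by role, with core and cap genes in blue, assembly chaperones, activators and inhibitor in orange, and related lists in grey. Filled points have an edgeR adjusted p under 0.05 and the dashed line is the median of all tested genes, 0.05; the 38 core and cap genes lie between 0.86 and 3.07, and the other lists reach down to lower values.

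Assembly chaperones bind nascent parts of the proteasome and leave before the particle is complete. Of the 3 members of this kind that build the base, psmd5 had 45.2, 59.4, 58.8, 65.5 and 45.3 CPM in hUHRF1 pools, against 6.47 to 13.7 CPM (median 7.77) in WT pools. psmd10, known as gankyrin in mammals, had 20.6, 29.3, 30.4, 28.5 and 19.5 CPM in hUHRF1 pools, against 2.53 to 6.02 CPM (median 4.50) in WT pools. Both were separate by more than 3 times, at log2 fold changes of 2.64 (SE 0.21, edgeR adjusted p = 4.19e-06) and 2.52 (SE 0.22, adjusted p = 7.43e-06). psmd9, the other base chaperone among the members, averaged 10.6 ± 2.28 CPM in hUHRF1 pools and 10.1 ± 1.64 CPM in WT pools (SD, n = 5 and 6). Its log2 fold change was 0.06 (95% interval -0.37 to 0.49, edgeR adjusted p = 0.834).

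The chaperones of the alpha ring were split in the same way. psmg1 and psmg2 form a dimer that starts the ring. psmg1 averaged 22.8 ± 4.90 CPM in hUHRF1 pools and 9.12 ± 1.86 CPM in WT pools, at a log2 fold change of 1.32 (edgeR adjusted p = 0.000223). psmg2 had 27.0, 35.7, 35.3, 35.5 and 26.3 CPM in hUHRF1 pools, against 8.17 to 16.5 CPM (median 12.8) in WT pools, with a log2 fold change of 1.37 (SE 0.19, adjusted p = 0.000187). Neither overlapped between the conditions. psmg3, which also acts on this ring, averaged 9.93 ± 1.91 CPM in hUHRF1 pools and 10.97 ± 2.38 CPM in WT pools, at -0.14 (95% interval -0.59 to 0.30, adjusted p = 0.617). With libraries scaled by total counts alone, the psmg3 value was 0.64, below the 0.83 of the median gene.

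Of the 4 members that encode regulators binding the 20S core in place of the 19S cap, 1 was called; the psme1 and psme2 activator, outside the name rule, is given below. The nuclear activator psme3 had a log2 fold change of 0.22 (95% interval -0.31 to 0.76, edgeR adjusted p = 0.513). The psme4 gene with the higher counts, ENSDARG00000018742, averaged 95.4 ± 16.9 CPM in hUHRF1 pools and 91.6 ± 25.1 CPM in WT pools, at 0.06 (95% interval -0.39 to 0.51, adjusted p = 0.849). Its copy ENSDARG00000087911 stood at 0.82 (95% interval 0.06 to 1.59, adjusted p = 0.0815), and was called without the hUHRF1 pool of clutch 8 (0.996, adjusted p = 0.0352) or the WT pool of clutch 5 (1.02, adjusted p = 0.0383). It was also called with the set of clutches as a term (0.91, edgeR adjusted p = 0.0401) and with only genes of 10 or more counts in each pool (0.90, adjusted p = 0.0487). The inhibitor psmf1 was higher, with 14.6, 16.8, 9.03, 14.4 and 16.9 CPM in hUHRF1 pools, against 5.30 to 9.27 CPM (median 6.53) in WT pools, and a slight overlap (log2 fold change 1.08, SE 0.20, adjusted p = 0.00143). Of the name matches that are not subunits, psmc3ip, a meiotic recombination factor, stood at 0.56 (adjusted p = 0.478), and psme3ip1, a partner of psme3, at -0.01 (adjusted p = 0.966).

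**Figure D4:**
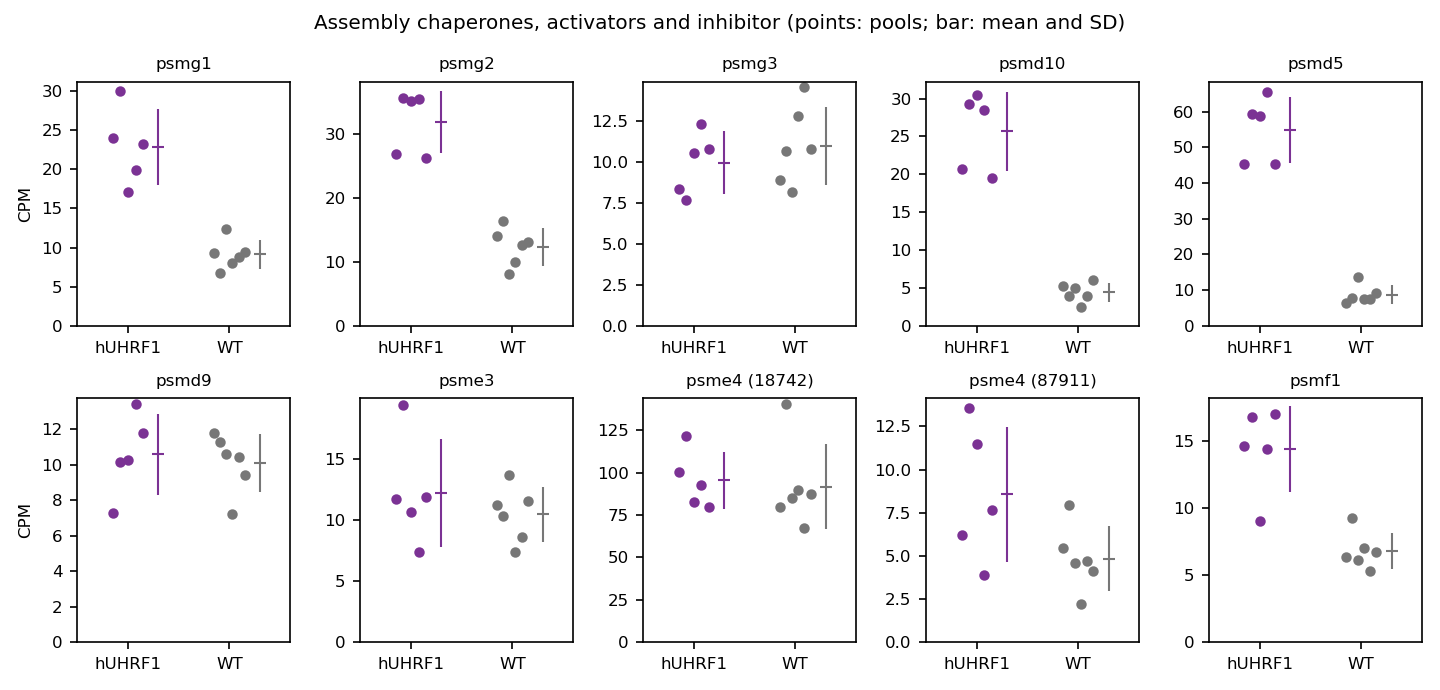
CPM of 10 assembly chaperones, activators and inhibitor in each pool (points), with mean and SD (bars), hUHRF1 left of WT, each panel from 0 on its own axis. psmd5, psmd10, psmg1 and psmg2 are separate between conditions, psmf1 overlaps slightly, and psmd9, psmg3, psme3 and the 2 psme4 genes overlap broadly.

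Of 8 subunits and partners whose names fall outside the rule, 5 were higher and 0 lower by edgeR, at an unadjusted p under 0.05, or by DESeq2, with a median log2 fold change of 0.99. Over all tested genes 14.5% were higher and 14.6% lower by edgeR. The deubiquitinase usp14, which docks on the base, had 73.1 to 110 CPM (median 94.9) in hUHRF1 pools and 17.2 to 30.4 CPM (median 20.6) in WT pools, at a log2 fold change of 2.06 (edgeR adjusted p = 8.91e-06). pomp, the maturation factor of the core, had 55.4 to 88.4 CPM (median 74.3) in hUHRF1 pools and 18.6 to 25.7 CPM (median 24.3) in WT pools, at 1.61 (adjusted p = 2e-05). The lid subunit sem1 (1.18, adjusted p = 0.000151), the ubiquitin receptor adrm1 (1.14, 0.0143) and txnl1, a thioredoxin-like protein bound to the cap (0.84, 0.000771), were also higher; the txnl1 call was lost in clutches 4 to 6 alone (adjusted p = 0.0797). The deubiquitinase uchl5 at 0.61 (adjusted p = 0.0592), ecpas, an adaptor between core and cap, at -0.08 (0.739) and akirin2, an import factor for proteasomes, at -0.06 (0.832) were not called. With clutch as a block uchl5 was called (0.60, edgeR adjusted p = 0.0296), as it was without the hUHRF1 pool of clutch 7 or the WT pool of clutch 6 or 9 (adjusted p = 0.0224 to 0.0486).

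Upstream of the particle, 5 of 10 shuttle and p97 genes were higher and 0 lower by edgeR or DESeq2 (2 were lower at an unadjusted p under 0.05, zfand5a and zfand5b). With clutch as a block, zfand5a (-0.62, edgeR adjusted p = 0.0121) and zfand5b (-0.57, adjusted p = 0.0366) were called lower, and both values were above 0 with libraries scaled by total counts alone. The p97 segregase vcp, which extracts ubiquitylated proteins from complexes and membranes, had 325 to 535 CPM (median 361) in hUHRF1 pools and 81.0 to 159 CPM (median 129) in WT pools. Its cofactor ufd1 had 32.4 to 60.1 CPM (median 41.4) in hUHRF1 pools and 9.35 to 21.0 CPM (median 12.3) in WT pools. Both were separate between conditions, at log2 fold changes of 1.70 (edgeR adjusted p = 7.03e-05 and 0.000204). Of the genes for ubiquitin and the E1 enzymes that activate it, 2 of 6 were higher, uba6 at 1.25 (edgeR adjusted p = 8.09e-05) and uba1 at 0.91 (0.00221). In the same list 1 was lower, the ubiquitin-ribosomal fusion rps27a at -0.80 (edgeR adjusted p = 0.014). The calls of uba1 and rps27a were lost in clutches 4 to 6 alone (edgeR adjusted p = 0.0725 and 0.0646). Over all tested genes 14.5% were higher and 14.6% lower, and 1 lower of 6 is close to that share. With clutch as a block, ubc was also higher (0.53, edgeR adjusted p = 0.0271). With libraries scaled by total counts alone, 0 genes of this list were lower and 5 were higher. Of the 15838 tested genes, 609 were lower and 8251 higher under that scaling.

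nfe2l1 encodes a transcription factor that, in mammals, raises proteasome subunit genes when the proteasome is impaired, after ngly1 and ddi2 process the protein. Of 8 genes on this route, 1 was higher and 1 lower by edgeR, close to the 14.5% and 14.6% of all tested genes. With clutch as a block, maff, a small Maf partner of these factors, was also higher (0.67, edgeR adjusted p = 0.00877). nfe2l1b had 24.5 to 28.4 CPM (median 27.5) in hUHRF1 pools and 10.9 to 24.4 CPM (median 18.7) in WT pools, narrowly separate, at a log2 fold change of 0.54 (edgeR adjusted p = 0.0382). Its call was lost when any single hUHRF1 pool, or the WT pool of clutch 4, 7 or 9, was left out (adjusted p = 0.0536 to 0.0804). It was also lost in clutches 4 to 6 alone (edgeR adjusted p = 0.256) and in clutches 7 to 9 alone (0.0934). The same held with no filter on low counts (0.0943) and without the hUHRF1 pools of clutches 7 and 9 (0.0933). With clutch as a block nfe2l1b was called (0.0117). nfe2l2b, related to nfe2l2 of the oxidative stress response, had 9.84 to 22.8 CPM (median 12.1) in hUHRF1 pools and 21.1 to 90.8 CPM (median 58.2) in WT pools, at -1.81 (adjusted p = 0.00163). It stood at -2.55 in clutches 4 to 6 alone and at -1.33 in clutches 7 to 9 alone, where its call was lost (adjusted p = 0.0547). nfe2l2 itself averaged 183 CPM in hUHRF1 pools and 199 CPM in WT pools and was not called (-0.12, edgeR adjusted p = 0.617). nfe2l1 (0.53, adjusted p = 0.311), ddi2 (0.02, 0.954) and ngly1 (0.02, 0.944) were also not called. The processing of the nfe2l1 protein is not visible in mRNA counts.

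The lid has a relative in the COP9 signalosome, which removes NEDD8 from cullin ligases, and the CCT chaperonin is another large ring complex. In the COP9 list 3 of 7 genes were higher by edgeR, where 14.5% of all tested genes were, and the list median was 0.27. Of this list 0 genes were lower by edgeR, at an unadjusted p under 0.05, or by DESeq2. The higher genes included cops3 at 1.08 (edgeR adjusted p = 0.000256) and cops4 at 1.08 (0.000488). In the CCT list, again close to the 14.5% and 14.6% of all tested genes, 1 of 8 was higher, cct3 at 0.80 (edgeR adjusted p = 0.00219; 0.0849 in clutches 4 to 6 alone), and 1 lower, tcp1 at -0.57 (0.021; 0.22 when libraries were scaled by total counts alone). The tcp1 call was lost without the hUHRF1 pool of clutch 4 or 9 (adjusted p = 0.0509 and 0.0529) and in either set of clutches alone (0.114 and 0.105). The median of the CCT list was -0.09, and 0.70 when libraries were scaled by total counts alone. The same scaling gave 2.73 for the core, 2.45 for the cap and 1.07 for COP9. Under either scaling the core and cap medians lay above those of both lists and of all tested genes.

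Of the 8 immunoproteasome IDs left out of the rule, 3 passed the filter on low counts. psme1, a subunit of the PA28 activator, had 26.2 to 57.5 CPM (median 41.0) in hUHRF1 pools and 2.50 to 7.65 CPM (median 4.17) in WT pools, at a log2 fold change of 3.25 (edgeR adjusted p = 6.63e-06). Its partner psme2 had 3.29 to 8.47 CPM (median 5.98) in hUHRF1 pools and 0.195 to 2.02 CPM (median 1.36) in WT pools, at 2.14 (adjusted p = 0.00182). Both activator genes were separate between conditions. psmb10 was not called (0.54, adjusted p = 0.23). The inducible catalytic genes psmb8 and psmb9 held 11 and 9 counts over the 5 hUHRF1 pools, against 3 and 2 counts over the 6 WT pools, which was too few to test.

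The sample labels word clutches 4 to 6 differently from clutches 7 to 9, and these sets were compared as a possible batch. Within clutches 4 to 6 alone, 38 of 38 core and cap genes were higher in hUHRF1 pools by edgeR, where 808 of 17102 tested genes were. Within clutches 7 to 9 alone 36 of 38 were, against 1193 of 15467 tested genes. The exceptions were psma6l and psmd2 (ENSDARG00000099653). In the model with a term for the set, 8 of the 50 members were called between the sets by edgeR, all higher in clutches 4 to 6. Of the 15838 tested genes, 8.01% were called in either direction, and 645 genes were higher in clutches 4 to 6. The 8 members were psmb1, psmb2, psmb5, psmd2 (both IDs), psmd4b, psmd11 (ENSDARG00000005134) and psmd13, with none from the alpha ring or the base ATPases. Across the 38 core and cap genes, the difference between the sets ran from -0.63 to 2.45 on the log2 scale in hUHRF1 pools and from -0.36 to 1.199 in WT pools. The differences in the 2 conditions went together across genes (Pearson r = 0.88, Spearman rho = 0.86, 38 genes that share libraries and are not independent).

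**Figure D5:**
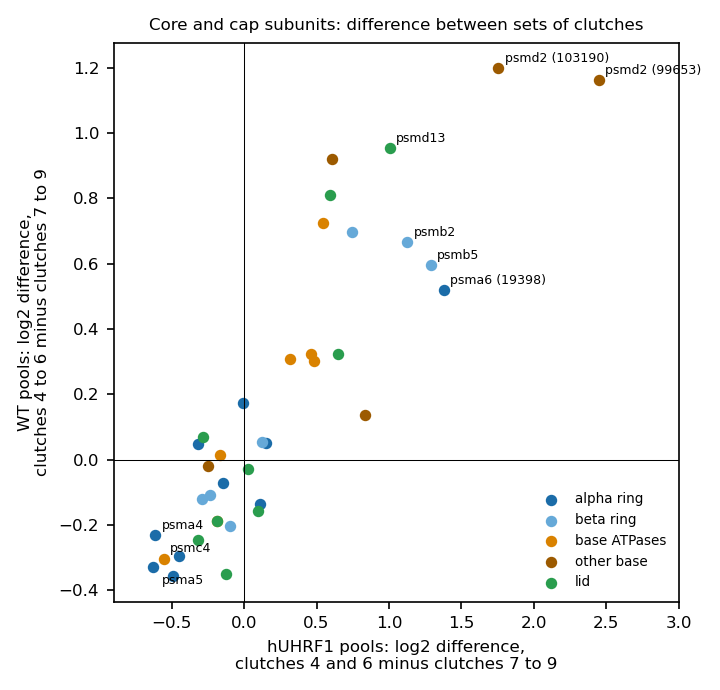
Difference in mean log2 CPM between sets of clutches for each of the 38 core and cap genes, in hUHRF1 pools (x axis, clutches 4 and 6 minus 7 to 9) and in WT pools (y axis, clutches 4 to 6 minus 7 to 9), coloured by role. The psmd2 genes, psmd13, psmb2, psmb5 and psma6 (ENSDARG00000019398) were higher in the set of clutches 4 to 6 in both conditions, and the other alpha ring genes lie between -0.63 and 0.15 in hUHRF1 pools.

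Beside the hepatocyte markers, those of exocrine pancreas and of macrophages had the most called genes. By edgeR, 1 of 8 intestine markers was higher and 2 lower, and 0 of 5 tested erythrocyte markers were higher and 1 lower. Among tested biliary, endothelium and neutrophil markers, 1 of 6, 2 of 7 and 0 of 4 were higher and 0 lower. Over all tested genes 14.5% were higher and 14.6% lower. The intestine markers had a median log2 fold change of 1.03. Their summed level, however, was 855 to 2592 CPM in hUHRF1 pools and 2172 to 5050 CPM in WT pools. In every clutch with both conditions the intestine sum was lower in the hUHRF1 pool. With libraries scaled by total counts alone, 0 intestine and 0 erythrocyte markers were called lower, where only 609 of the 15838 tested genes were. Of 9 exocrine pancreas markers, 8 were higher in hUHRF1 livers by edgeR (7 with clutch as a block), and their summed level was 1200 to 10678 CPM in hUHRF1 pools and 630 to 2541 CPM in WT pools. The hUHRF1 pools of clutches 6 and 8, at 1200 and 2213 CPM, lay within the WT range, and their core sums were 2501 and 2859 CPM. Without the hUHRF1 pools of clutches 7 and 9, which had the highest pancreas sums, all 38 core and cap genes were higher by edgeR. Of 16397 genes tested in that fit 1758 were higher, and the core median was 2.18. The choice was made after seeing the data, and both pools left out belong to the set of clutches 7 to 9. A change in the median cannot be told apart here from a difference between the sets. That fit kept the hUHRF1 pool of clutch 4, whose pancreas sum of 2969 CPM lay above the WT range. Of 12 macrophage markers 9 were tested and 7 were higher, with summed levels of 37.3 to 60.4 CPM in hUHRF1 pools and 11.1 to 29.1 CPM in WT pools; no pool of either condition had all markers of either list at 0. The part of the pancreas, macrophage and intestine markers and of the lower hepatocyte markers in the proteasome result was not tested.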

How the data were processed

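RNA of 11 pooled liver samples was analysed, from larvae at 120 hpf. The authors aligned reads to GRCz10 with HISAT2 at default settings and deposited raw read counts per gene made with HTSeq; MultiQC 1.7 is listed in the submitters' processing notes. The strand setting and the handling of reads with several matches are not given in the sources used here. The labels name an incross of transgenic fish, whereas the methods describe a cross to WT fish.

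Counts were filtered with filterByExpr (minimum count 10, minimum total 15), scaled by TMM and tested with edgeR 4.0.16 (R 4.3.3, limma 3.58.1; quasi-likelihood test, condition only, all 11 pools) with Benjamini-Hochberg adjustment over 15838 genes. The study used DESeq2; here DESeq2 1.42.0 was an alternative. Standard errors are the absolute log2 fold change over the root of F, and 95% intervals use 9 degrees of freedom. CPM uses TMM-scaled library sizes. The fitting was also run on simulated counts with equal numbers of genes raised and lowered. That run cannot test the choice of scaling between conditions. Names come from a table that named 26269 of the 32105 IDs. No pools agreed within sampling noise.

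hUHRF1 and WT pools with the same clutch number were taken as siblings. Their deviations from the condition means correlated at 0.206 to 0.481 in the 5 shared clutches. Pools of different clutches were not compared in this way, so these values do not test the pairing. The block of clutch was run as an alternative, beside other scalings, filters, DESeq2, the set of clutches and each pool left out.

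The members and gene lists were chosen with earlier results of these data known. Values per pool were given for the catalytic subunits, the 3 members with the smallest adjusted p in the core, the cap and the rest, duplicated genes and the 2 called genes with the smallest adjusted p in each related list; values per pool for psmf1, and means for psma4, psma5, psmg1 and members not called, were added after their values were seen. A planned promoter motif search was not run, and sequences were not analysed here. A result for 1 gene of the related lists is not reported here.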

Additional observations from a re-analysis of the deposited data

Results flagged for a closer look

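In 8 of the 104 groups of pools examined (each member and the core and cap sums, in each condition), the highest or lowest pool stood apart from the others by Dixon's criterion, which chance meets in about 1 in 20 groups. In WT livers the pool of clutch 6 was the high one in 4 of them: psmc3 at 61.8 CPM with the nearest pool at 39.5, psmb1 at 38.2 CPM (nearest 23.5), psma8 at 78.3 CPM (nearest 57.3) and psmb7 at 77.6 CPM (nearest 60.6). Other WT pools stood apart for psme4 (ENSDARG00000018742) in clutch 5 at 140.2 CPM (nearest 90.0), for psma6l in clutch 9 at 0.713 CPM (nearest 0.132), and for psmd14 in clutch 4, the low pool, at 25.2 CPM (nearest 37.6). In hUHRF1 livers the pool of clutch 8 was high for psmc5 at 195 CPM (nearest 147).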

How the results depend on the processing

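All 38 core and cap genes were higher in hUHRF1 livers under other scalings, DESeq2, no filter, the set of clutches as a term, in clutches 4 to 6 alone, and without the hUHRF1 pools of clutches 7 and 9 (this last choice was made after seeing the data). Under a stricter filter, at least 10 counts in each pool, 37 were left and all were higher. With clutch as a replicate block 5566 genes were called, 43 members were higher (38 of 38 core and cap), and no member's call changed. Members called higher numbered 41 to 49 over all alternatives. Among all tested genes, calls higher ran from 808 of 17102 (clutches 4 to 6 alone) to 8251 of 15838 (library size only). The exceptions in core and cap were psma6l and psmd2 (ENSDARG00000099653), given above.

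The genes called over all tested numbered 4612, against 8860 with library size only, 1784 in clutches 4 to 6 alone and 2541 in clutches 7 to 9 alone, which hold fewer pools, and 3881 to 4504 with each pool left out. The core median was 2.73 with library size only and 2.18 without the hUHRF1 pools of clutches 7 and 9, and the cap median was 2.45 with library size only.

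Of the members and genes of the related lists that changed direction, tcp1 alone was called in the reported fit. Markers that rose above 0 with library size only were 2 of intestine (fabp2 and apoa4b.2), 3 of erythrocytes, 2 biliary, 1 neutrophil and 1 endothelium. The intestine list had 2 markers called lower in the reported fit and the erythrocyte list 1, against 0 in each with library size only. Of the 15838 tested genes, 2313 were lower in the reported fit and 609 with library size only. With library size only, psmg3 was 0.64, psme3ip1 0.80, ecpas 0.70, akirin2 0.75 and tcp1 0.22, and the values of 5 more CCT, 2 COP9, 3 shuttle and p97 genes, both ubb genes and nfe2l2, all negative before, were also above 0. Under the stricter filter psme3ip1 was 0.065, ecpas 0.000418 and akirin2 0.014. In clutches 4 to 6 alone psmd9 was -0.38, psme3ip1 0.20 and akirin2 0.088, and without the hUHRF1 pools of clutches 7 and 9 psme3ip1 was 0.15 and akirin2 0.11. With each pool left out, psmd9 ran from -0.046 to 0.16, psme3 from -0.014 to 0.35, psme4 (ENSDARG00000018742) from -0.045 to 0.22, psme3ip1 from -0.089 to 0.11 and akirin2 from -0.21 to 0.029. The causes were not tested. Depth limits psma6l, psmc3ip and the inducible catalytic genes, which had few counts.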
